A study of Mus musculus with 9 samples.

Results

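The endothelial genes described here are 9 transcripts of the cells that line blood vessels, Pecam1, Cdh5, Kdr, Flt1, Tek, Tie1, Egfl7, Vwf and Emcn, together with Vegfa, the growth factor those cells respond to. They were taken by symbol, and all 10 were found among the 15593 gene symbols of the deposited table and were among the 15372 tested. RNA came from mouse gastrocnemius, the large calf muscle, in 3 groups of 3 libraries each. One group was wildtype with vehicle, another was mdx with vehicle, and the last was mdx with GTx-026, 10 mg/kg by subcutaneous injection. The mdx mouse, whose dystrophin gene Dmd is mutated, serves as a model of Duchenne muscular dystrophy; the series title places GTx-026 among androgen receptor agonists. Every library, mdx or wildtype, carries the strain label C57BL/6, and the labels used here give no age and tie no library to an animal, so a p-value measures the spread between these libraries, which may be technical.

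Each fibre of skeletal muscle is surrounded by capillaries, tubes made of a single layer of endothelial cells. Muscle fibres secrete vascular endothelial growth factor A, the product of Vegfa, which binds the receptor tyrosine kinases VEGFR2 (Kdr) and VEGFR1 (Flt1) on the endothelium. VEGFR2 carries most of the growth signal, whereas VEGFR1 binds the ligand tightly, signals weakly and also exists in a soluble form that captures ligand. A separate receptor, TIE2 (Tek), and its partner TIE1 (Tie1) respond to the angiopoietins and keep vessels stable.

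Levels are given as CPM, the reads of a gene scaled to a library of 1 M (mega) reads. The estimated reads listed per library ran from 25.1 M to 38.0 M, and the 10 genes had between 180 listed reads for Emcn in its lowest library and 7779 for Vegfa in its highest. Dmd lay between 41.4 and 60.0 CPM in wildtype vehicle, between 11.4 and 21.7 CPM in mdx vehicle and between 14.2 and 18.0 CPM in mdx GTx-026, and neither mdx group overlapped wildtype. Library 1 of mdx vehicle was unlike the others in its slow-fibre genes: the log2 difference from wildtype, as the median of 8 such genes, was −3.04 there and between −1.71 and 1.85 in the other libraries. That library also stood apart in Cd52, the 1 of 8 lymphoid markers tested, at 110 CPM, beside 0.98 to 37.75 CPM in the other libraries. Its sum over 5 of 6 lymphatic genes was 68.4 CPM, beside 11.5 to 25.5 CPM in the others. The part of lymphoid cells in the levels of the endothelial genes was not tested. The value without mdx vehicle library 1 is given beside each log2 fold change, list median or ratio that leaving it out moved by over 1.5 times. Of the cell types checked by marker genes, skeletal muscle fibre had the highest summed level, 99130 to 186400 CPM over 6 of 6 markers tested. The 9 lining markers summed to between 168.5 and 354 CPM. Such sums are transcript levels of different genes and not numbers of cells. In whole muscle, fewer endothelial cells and less RNA per endothelial cell cannot be told apart.

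Promoter sequence was at hand for 7 of the 10 genes (Egfl7, Emcn, Flt1, Kdr, Tek, Tie1 and Vegfa) in the RefSeq promoter table of build GRCm38.p6. The windows of the VEGF receptors, of Tie1 and of the ligand are shown, and match counts are given for the rest. Each holds 150 bases that end just before an annotated transcript start, read 5′ to 3′ on the strand of the gene, with matches to GGAAG, the core word of ETS factors, or to its reverse complement CTTCC in capitals. The strand is minus in all 4, at chr5:75978456-75978605 for Kdr, chr5:147726012-147726161 for Flt1, chr4:118489850-118489999 for Tie1 and chr17:46032378-46032527 for Vegfa. The RefSeq spans of Kdr and Flt1 reach beyond these windows, so another transcript model of each starts further upstream.
Kdr: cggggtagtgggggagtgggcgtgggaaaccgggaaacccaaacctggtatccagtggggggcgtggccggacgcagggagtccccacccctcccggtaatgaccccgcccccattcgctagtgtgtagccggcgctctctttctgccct
Flt1: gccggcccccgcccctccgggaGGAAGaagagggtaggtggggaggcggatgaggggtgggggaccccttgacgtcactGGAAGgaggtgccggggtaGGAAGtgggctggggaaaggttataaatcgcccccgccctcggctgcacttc
Tie1: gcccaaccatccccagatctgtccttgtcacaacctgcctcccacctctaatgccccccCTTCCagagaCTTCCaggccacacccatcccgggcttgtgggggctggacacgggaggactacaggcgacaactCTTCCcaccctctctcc
Vegfa: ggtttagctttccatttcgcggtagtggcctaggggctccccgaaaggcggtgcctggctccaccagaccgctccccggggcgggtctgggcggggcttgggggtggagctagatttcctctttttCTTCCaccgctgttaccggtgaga
The Flt1 and Tie1 windows held 3 matches each, the Vegfa window 1 and the Kdr window 0. Over the 250 bases before the start the counts were 3 for Flt1, 6 for Tie1, 1 for Vegfa and 1 for Kdr. In the windows not shown they were 0 for Tek, 2 for Emcn, 4, 2 and 0 for those of Egfl7, and 1 for the further Vegfa window named below. GGAAG on either strand occurs in 64.1% of the 32851 promoter windows of 250 bases in the table, so a match is a description of these letters and not of a site. The hypoxia response core ACGTG, on either strand, had 0 matches in these 4 windows of 250 bases and occurs in 16.6% of all windows. The table holds a further Vegfa window, chr17:46025164-46025313 in its last 150 bases, whose start was not matched to a transcript of the gene, and over 250 bases it held 1 match to ACGTG.

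When mutant muscle was set against normal muscle, mdx vehicle against wildtype vehicle, all 10 genes had a log2 fold change below 0, except that Pecam1 lay at 0.051 on the scaling of the deposited table, and Kdr was furthest from 0. That scaling moved the median of all genes tested to 0.15. Kdr averaged 14.6 ± 2.33 CPM in mdx vehicle and 32.8 ± 13.2 CPM in wildtype vehicle (SD, n = 3 each). Over the 10 genes the median log2 fold change was −0.47, beside 0.01 over all genes tested, and 48.9% of all genes tested lay below 0. By limma with Benjamini-Hochberg adjustment over all genes, 0 of the 10 passed the threshold of 0.05, where 0.338% of all genes passed in either direction. At an unadjusted p under 0.05, 1 of the 10 was lower, beside 6.36% of all genes. The groups did not overlap, with mdx vehicle lower, for 1 of the 10, beside 8.52% of all genes. That gene was Kdr in both counts, and 1 in 10 is near both backgrounds.

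Vegfa (chromosome 17, 46016993 to 46032377, GRCm38.p6) encodes the ligand. Its level was 146, 178 and 283 CPM in wildtype vehicle libraries 1 to 3, 82.7, 194 and 141 CPM in mdx vehicle, and 165, 211 and 165 CPM in mdx GTx-026. Wildtype library 3 was the highest of the 9 and mdx vehicle library 1 the lowest, and the 3 groups overlapped. In mdx vehicle its log2 fold change was −0.56 (SE 0.32, 95% interval −1.28 to 0.16; limma adjusted p = 0.494), and without mdx vehicle library 1 it was −0.23.

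Kdr (chromosome 5, 75932827 to 75979072) encodes the main signalling receptor for that ligand. Its level was 27.9, 22.8 and 47.8 CPM in wildtype vehicle, 13.1, 13.5 and 17.3 CPM in mdx vehicle, and 8.45, 16.0 and 23.0 CPM in mdx GTx-026. All 3 mdx vehicle libraries lay below all 3 wildtype libraries, and GTx-026 library 3 lay just above the lowest wildtype library. In mdx vehicle the log2 fold change was −1.05 (SE 0.35, 95% interval −1.84 to −0.27), with an unadjusted limma p of 0.014 and an adjusted p of 0.284. Over the 18 alternative settings it ran from −1.27 to −0.75, the adjusted p from 0.225 to 0.697, and the unadjusted p was under 0.05 in 17. The exception was the fit without wildtype library 3, the highest of all, where the change was −0.75 (an unadjusted p of 0.0597). Without mdx vehicle library 1 it was −0.99 (an unadjusted p of 0.0355). Both sequence records that the table holds for Kdr, which can share reads, gave −0.99 on the deposited scaling as a log2 ratio of group means. By limma on that scaling the log2 fold change of Kdr was −0.89. The records below wildtype by such ratios were 1 of 9 for Pecam1, 7 of 11 for Egfl7 and 2 of 3 for Emcn. For the other members every record lay below.

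Flt1 (chromosome 5, 147561604 to 147726438), the decoy-like receptor of the same ligand, was at 16.2, 15.9 and 33.7 CPM in wildtype vehicle. It was at 7.75, 16.5 and 17.1 CPM in mdx vehicle and at 12.9, 16.5 and 21.0 CPM in mdx GTx-026. Library 1 of mdx vehicle and library 1 of GTx-026 lay below the wildtype range, and the other mdx libraries lay inside it. In mdx vehicle its log2 fold change was −0.62 (SE 0.36, 95% interval −1.42 to 0.18; limma adjusted p = 0.495), and without mdx vehicle library 1 it was −0.28. Of the signal of Flt1, 94.3% lay in the larger of its 2 sequence records, and which record is the soluble form was not established here.

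For both TIE receptors the mdx and wildtype libraries overlapped. Tek (chromosome 4, 94739086 to 94874976), the angiopoietin receptor, was at 11.9, 12.1 and 14.9 CPM in wildtype vehicle, 6.80, 9.73 and 14.0 CPM in mdx vehicle, and 11.2, 9.31 and 21.0 CPM in mdx GTx-026. The wildtype libraries lay close together, 2 of the 3 mdx vehicle libraries lay below them, and the GTx-026 libraries lay on both sides of them. In mdx vehicle the log2 fold change of Tek was −0.37 (SE 0.31; limma adjusted p = 0.632), and −0.14 without library 1 of that group. Tie1 (chromosome 4, 118471191 to 118489849), its partner without a well-established ligand of its own, was at 31.2, 22.3 and 36.8 CPM in wildtype vehicle. Its mdx vehicle libraries were at 15.1, 20.3 and 27.7 CPM and its mdx GTx-026 libraries at 17.1, 20.6 and 29.7 CPM. In each mdx group 2 of the 3 libraries lay below the wildtype range, and in mdx vehicle the log2 fold change was −0.51 (SE 0.27, 95% interval −1.12 to 0.10; limma adjusted p = 0.467). That of Tie1 was −0.30 without mdx vehicle library 1.

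For the junction and surface genes the 3 groups overlapped throughout. Cdh5 (chromosome 8, 104101613 to 104144504) encodes VE-cadherin, which holds endothelial cells together. It was at 61.3, 37.1 and 72.7 CPM in wildtype vehicle, 30.7, 32.6 and 58.5 CPM in mdx vehicle, and 35.6, 39.9 and 70.6 CPM in mdx GTx-026, with a log2 fold change of −0.49 in mdx vehicle (SE 0.34; limma adjusted p = 0.575) and of −0.32 without library 1 of that group. Pecam1 (chromosome 11, 106654213 to 106715281), the adhesion molecule CD31, is also made by platelets and leukocytes. Its level was 53.1, 37.1 and 63.1 CPM in wildtype vehicle, 59.0, 28.8 and 56.4 CPM in mdx vehicle, and 37.9, 36.5 and 68.5 CPM in mdx GTx-026. In mdx vehicle 2 of its 3 libraries lay inside the wildtype range, and the log2 fold change was −0.12 (SE 0.33; limma adjusted p = 0.894), the closest to 0 of the 10. It was −0.30 without mdx vehicle library 1, 0.045 without wildtype library 3 and 0.20 without mdx vehicle library 2. Emcn (chromosome 3, 137341062 to 137431069), the surface sialomucin of capillaries and veins, was the lowest of the 10 in CPM, with 7.65, 7.45 and 10.7 CPM in wildtype vehicle, 6.71, 5.43 and 8.95 CPM in mdx vehicle, and 5.32, 6.77 and 12.0 CPM in mdx GTx-026. In mdx vehicle the log2 fold change of Emcn was −0.27 (SE 0.28; limma adjusted p = 0.708).

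Of the secreted products, Egfl7 (chromosome 2, 26581083 to 26592682) encodes a matrix protein laid down around growing vessels. It was at 49.8, 34.0 and 46.4 CPM in wildtype vehicle, 38.7, 29.96 and 40.0 CPM in mdx vehicle, and 34.7, 31.3 and 42.9 CPM in mdx GTx-026. This was the steadiest lining marker, with an SE of 0.19 around a log2 fold change of −0.25 in mdx vehicle (95% interval −0.67 to 0.18; limma adjusted p = 0.603). Vwf (chromosome 6, 125552948 to 125686679) encodes von Willebrand factor, the clotting protein stored in endothelial cells and platelets. It was at 16.6, 20.9 and 28.3 CPM in wildtype vehicle, 10.5, 11.7 and 29.5 CPM in mdx vehicle, and 14.9, 9.43 and 35.9 CPM in mdx GTx-026. Library 3 was the highest in each group, and the ratio of the highest to the lowest library within mdx GTx-026 was 3.81. In mdx vehicle the log2 fold change of Vwf was −0.45 (SE 0.48, 95% interval −1.53 to 0.64; limma adjusted p = 0.713), and without library 1 of that group it was −0.19.

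**Figure D1:**
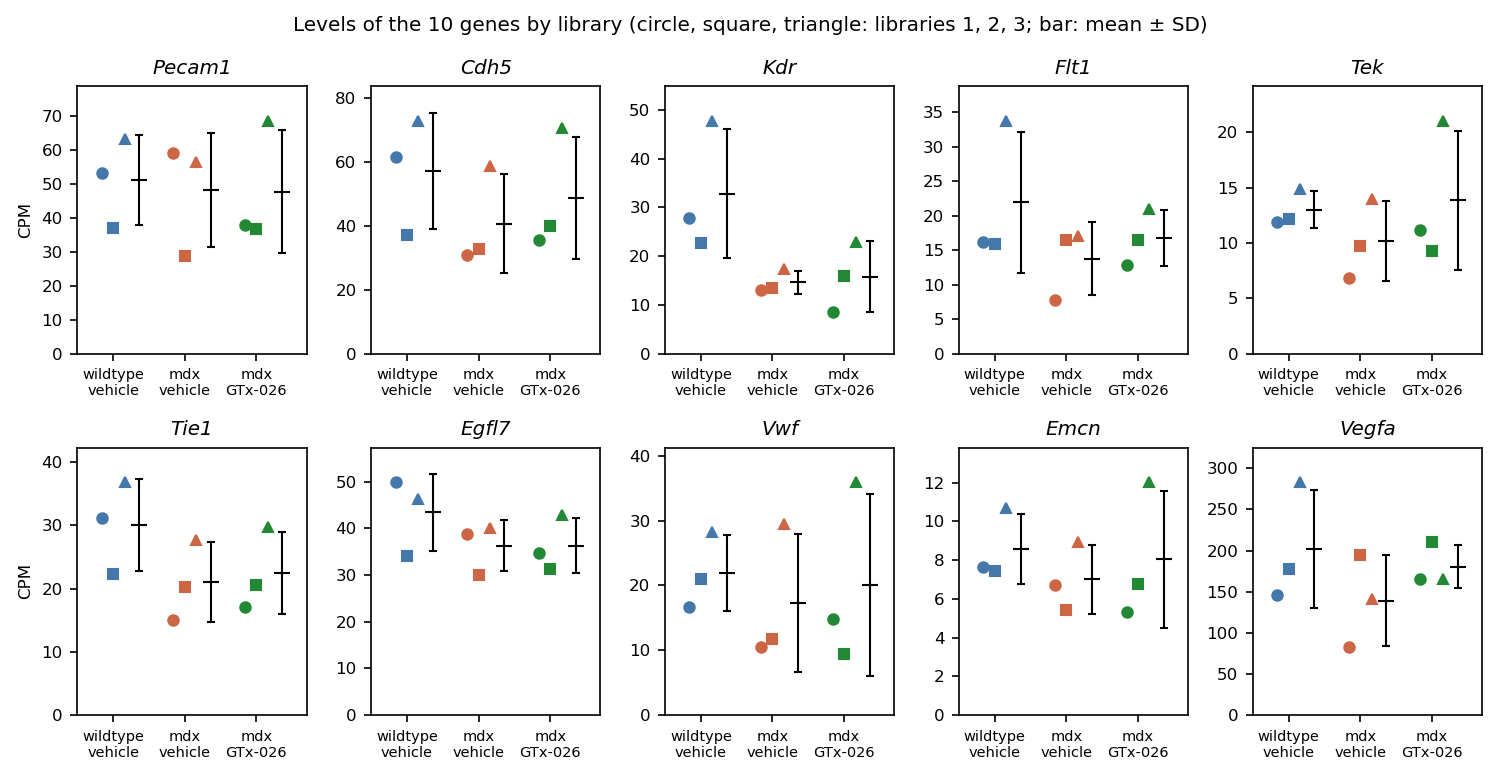
Level of each endothelial gene in CPM (vertical axes, starting at 0 and scaled for each gene) in the 9 libraries, by group; circle, square and triangle are libraries 1, 2 and 3, and the bar is the mean ± SD of 3 libraries. Kdr is the gene whose mdx vehicle libraries, at 13.1 to 17.3 CPM, all lie below the wildtype libraries, and for Vwf library 3 is the highest of each group.

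The comparison of mdx GTx-026 with mdx vehicle sets the drug against its vehicle in mutant muscle, and it shares the mdx vehicle libraries with the comparison above. Kdr averaged 15.8 ± 7.26 CPM with GTx-026 and 14.6 ± 2.33 CPM with vehicle (SD, n = 3 each). Of the 10 genes, 9 had a log2 fold change above 0 and Pecam1, at −0.006, lay below, but on the deposited scaling Egfl7 (−0.061) and Kdr (−0.044) lay below as well, as they did on median-of-ratios scaling. Of all genes tested 51.1% lay above 0. The median of the 10 was 0.14, beside 0.005 over all genes. By limma 0 of the 10 passed after adjustment (0.0130% of all genes did, in either direction), and 0 had an unadjusted p under 0.05 (3.17% of all genes). The groups overlapped for each of the 10 genes, and 6.79% of all genes did not overlap in either direction.

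Vegfa and Tek had the largest log2 fold changes of the 10 with all libraries in the fit, and Pecam1, at 0.16, had the largest without mdx vehicle library 1. Vegfa averaged 180.5 ± 26.4 CPM with GTx-026 and 139 ± 55.7 CPM with vehicle (SD, n = 3), a log2 fold change of 0.45 (SE 0.32, 95% interval −0.28 to 1.17; limma adjusted p = 0.9996). Tek differed by 0.38 (SE 0.31, 95% interval −0.31 to 1.07) and Flt1 by 0.31 (SE 0.36). Without mdx vehicle library 1 Vegfa differed by 0.11, Tek by 0.14 and Flt1 by −0.04, while Cdh5 was at 0.08, Emcn at 0.10, Egfl7 at 0.04, Tie1 at −0.12, Vwf at −0.12 and Kdr at −0.06. With all libraries Kdr differed by 0.01, with an unadjusted 95% interval from −0.77 to 0.80, which holds changes of either sign. Those bounds are not a limit of detection after adjustment over all genes. In mdx vehicle against wildtype vehicle Kdr was not called at −1.05, with the same SE of 0.35. The median of the 10 depended on single libraries: it ran from −0.12 to 0.40 when each library was left out in turn, and was 0.06 without mdx vehicle library 1. The members below 0 then numbered from 0 to 7.

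In mdx GTx-026 against wildtype vehicle, which shares a group with each of the comparisons above, 9 of the 10 genes lay below 0. Tek lay at 0.01, at −0.0003 on median-of-ratios scaling and at 0.003 without mdx vehicle library 1. Of all genes tested 49.7% lay below 0. The median of the 10 was −0.24, beside 0.001 over all genes. By limma 0 of the 10 passed after adjustment, beside 1.48% of all genes in either direction. At an unadjusted p under 0.05, 1 of the 10 was lower, beside 5.11% of all genes, and 0 of the 10 were lower without overlap, beside 9.26% of all genes. Kdr was again the furthest from 0, at −1.04 (SE 0.35, 95% interval −1.83 to −0.25; limma adjusted p = 0.233, with an unadjusted p of 0.0148). Leaving out wildtype library 3 gave −0.74 (an unadjusted limma p of 0.0631), and leaving out GTx-026 library 1 gave −0.68 (an unadjusted limma p of 0.0574). Over all 18 alternatives the change ran from −1.35 to −0.68. Side by side, Kdr was thus −1.05 in mdx vehicle and −1.04 in mdx GTx-026 against the same wildtype libraries, and Vegfa was −0.56 and −0.12. The values of Vegfa without mdx vehicle library 1 were −0.23 and −0.13.

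**Figure D2:**
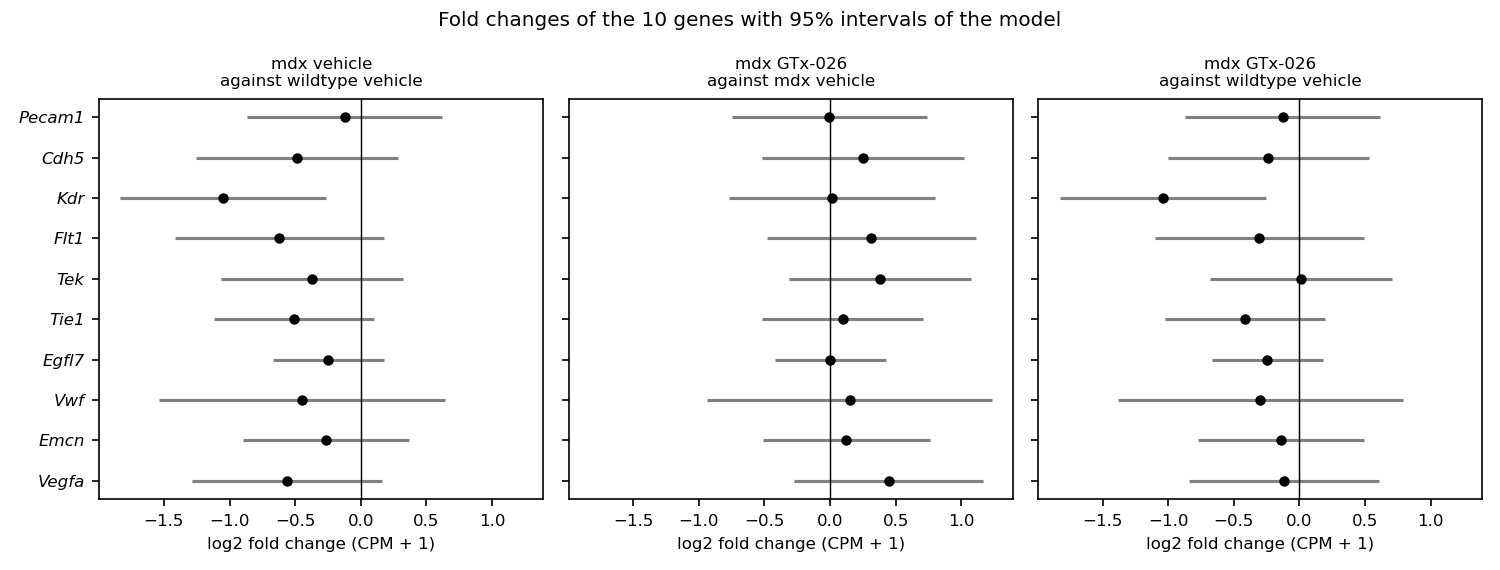
Log2 fold change of log2(CPM + 1) for each endothelial gene (points) with the 95% interval of the limma model (lines) in the 3 comparisons, on a shared horizontal axis. Kdr is the gene whose interval, unadjusted for the number of genes, stays below 0 in both comparisons with wildtype vehicle, and in mdx GTx-026 against mdx vehicle all 10 intervals include 0.

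Ratios within a library compare receptors and ligand without the library's total, and since gene length enters each ratio only its difference between groups was read. The log2 ratio of Flt1 to Kdr was −0.75, −0.50 and −0.49 in the wildtype vehicle libraries, −0.69, 0.28 and −0.02 in mdx vehicle, and 0.55, 0.04 and −0.13 in mdx GTx-026. All 3 GTx-026 libraries lay above all 3 wildtype libraries, with means of 0.16 ± 0.35 and −0.58 ± 0.15 (SD, n = 3 each). The difference was 0.73, with an exact two-sided permutation p of 0.1, the smallest that 3 against 3 libraries allow, and 0.45 after Benjamini-Hochberg adjustment over 9 such tests. In mdx vehicle the mean was −0.14 ± 0.50 and its library 1 lay within the wildtype range (exact permutation p = 0.3). The difference of mdx vehicle from wildtype was 0.43, and 0.705 without that library, and that of GTx-026 from mdx vehicle was 0.30, and 0.03 without it. The log2 ratio of Vegfa to Kdr was 2.60 ± 0.29 in wildtype vehicle, 3.09 ± 0.61 in mdx vehicle and 3.53 ± 0.68 in mdx GTx-026 (SD, n = 3 each). For each mdx group against wildtype the exact permutation p was 0.2. Without mdx vehicle library 1 the difference of mdx vehicle from wildtype went from 0.49 to 0.75 and that of GTx-026 from mdx vehicle from 0.435 to 0.17. That of Tie1 to Tek was 1.13 ± 0.26, 0.99 ± 0.05 and 0.70 ± 0.32 in the same order, with an exact permutation p of 0.2 for GTx-026 against wildtype. None of these 9 comparisons could reach 0.05 with 3 libraries a group.

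**Figure D3:**
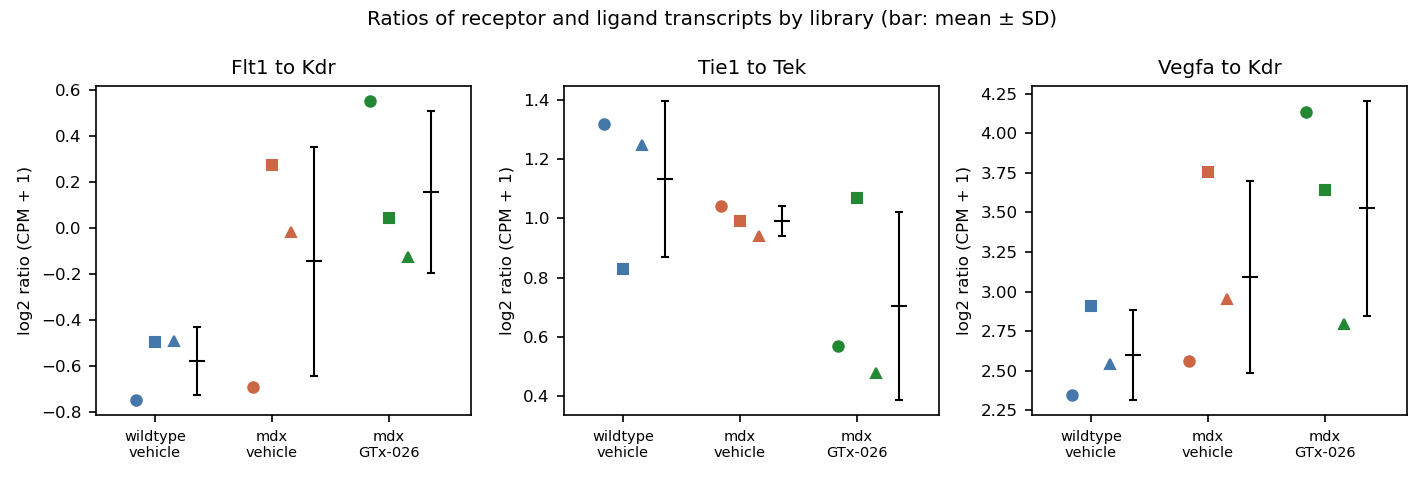
Log2 ratio of 2 transcripts (log2 of CPM + 1, vertical axes, not starting at 0) in each library by group, for Flt1 to Kdr, Tie1 to Tek and Vegfa to Kdr; symbols are libraries 1, 2 and 3 as circle, square and triangle, and the bar is the mean ± SD. The Flt1 to Kdr ratio of the GTx-026 libraries, −0.13 to 0.55, lies above that of the wildtype libraries, −0.75 to −0.49.

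The lining markers were often high or low in the same libraries. Wildtype library 3 and GTx-026 library 3 were each among the 3 highest libraries for 9 of the 9 lining markers. The median of the 9 markers, as a log2 difference from the wildtype mean, was −0.11, −0.36 and 0.33 in wildtype vehicle, −0.84, −0.56 and 0.07 in mdx vehicle, and −0.59, −0.44 and 0.36 in mdx GTx-026. Library 3 was thus the highest of each group and its number pairs nothing, while libraries 1 and 2 of both mdx groups were lower than every wildtype library. Without mdx vehicle library 1 the median log2 fold change of the 10 genes in mdx vehicle was −0.29, and it ran from −0.67 to −0.28 when each library was left out in turn.

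Marker lists of other cells also differed between libraries, and not always in the direction of the lining markers. Wildtype library 3 had the lowest macrophage sum of the 9 libraries, at 36.7 CPM. GTx-026 library 3 had the lowest fibre sum of its group, at 109500 CPM, but the highest slow-fibre sum of the 9 libraries, at 13560 CPM. Over 9 of 10 macrophage markers tested (Adgre1 was not analysed here), the summed level was 36.7 to 90.6 CPM in wildtype vehicle, 102.5 to 386 CPM in mdx vehicle and 249 to 326 CPM in mdx GTx-026. In mdx vehicle 9 of these 9 lay above 0 with a median of 1.42, and Lgals3, the lectin galectin-3, named here after its values were seen, rose (limma adjusted p = 0.0336; 0.04 without library 1 of that group). The 6 fibre markers had a median of −0.55, with 6 of 6 below 0 and summed levels of 144800 to 186400 CPM in wildtype vehicle and 99130 to 136600 CPM in mdx vehicle. In mdx GTx-026 the fibre sum was 109500 to 178100 CPM. Over 8 slow-fibre markers the sum ranged from 1022 to 10200 CPM in wildtype vehicle, from 278 to 8319 CPM in mdx vehicle and from 905 to 13560 CPM in mdx GTx-026. Of 5 platelet markers, whose cells also make Vwf and Pecam1, 3 were tested, with sums of 14.3 to 15.9 CPM in wildtype vehicle, 16.9 to 19.6 CPM in mdx vehicle and 18.9 to 25.7 CPM in mdx GTx-026. Over 5 of 5 erythroid markers, the sum was 301 to 880 CPM in wildtype vehicle, 114 to 517 CPM in mdx vehicle, lowest in library 1, and 335 to 1042 CPM in mdx GTx-026. In mdx vehicle against wildtype 5 of these 5 lay below 0 (median −0.59, or −0.12 without library 1), and with GTx-026 against mdx vehicle 5 of 5 lay above 0 (0.87, or 0.22 without it, with 2 of 5 below 0). Of the pericyte and smooth muscle markers 9 of 10 were tested, with sums of 352.5 to 503 CPM in wildtype vehicle, 285 to 550.5 CPM in mdx vehicle, again lowest in library 1, and 359 to 508 CPM in mdx GTx-026. In mdx vehicle against wildtype 6 of the 9 lay below 0 (median −0.18, or 0.07 without library 1), and with GTx-026 against mdx vehicle 9 of 9 lay above 0 (0.34, or 0.05 without it). The part of each of these cell types in the levels of the endothelial genes was not tested.

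**Figure D4:**
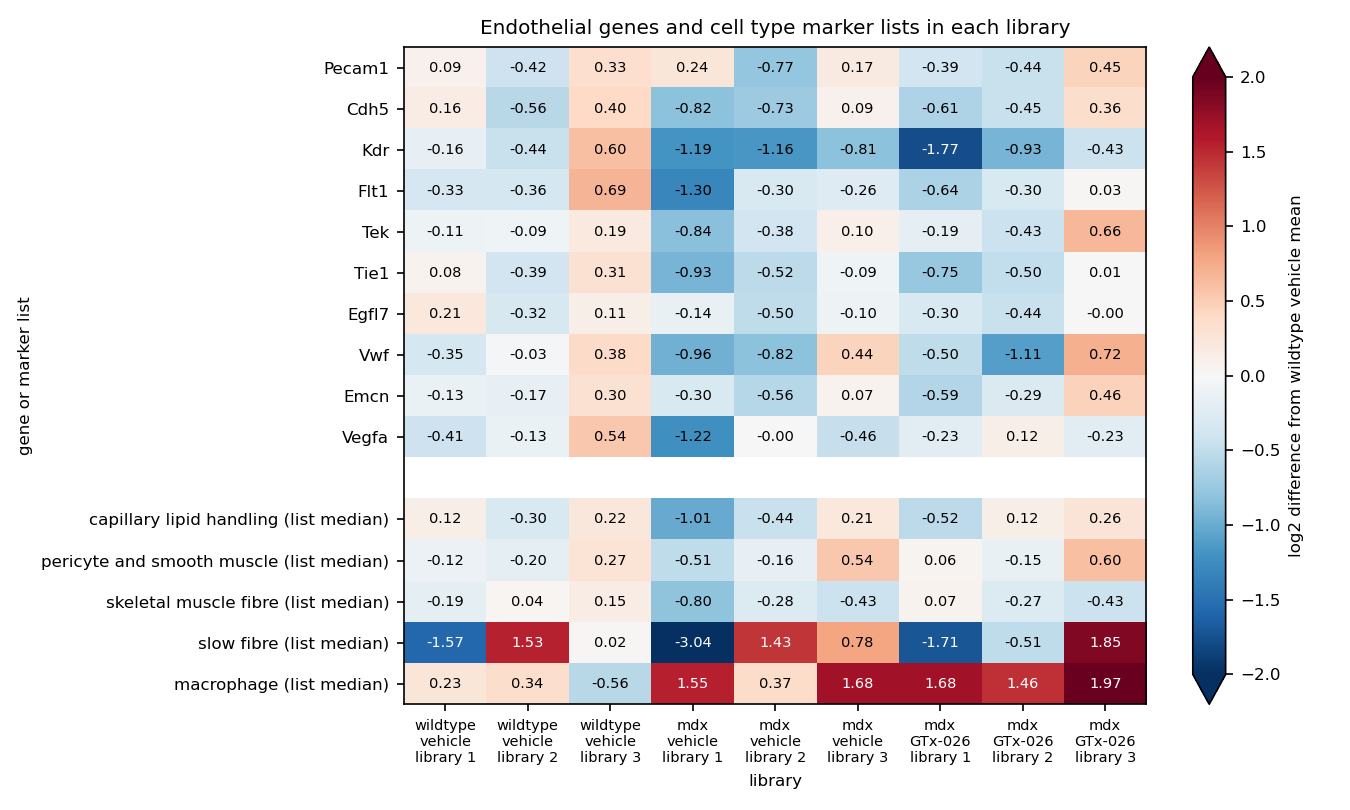
Log2 difference from the wildtype vehicle mean (colour, clipped at −2 and 2, with the value printed) of each endothelial gene and of the median of 5 marker lists (rows) in the 9 libraries (columns). Kdr is below 0 in all 6 mdx libraries, from −1.77 to −0.43, and also in wildtype vehicle libraries 1 and 2, at −0.16 and −0.44. Egfl7 is at or below 0 in the same 6 mdx libraries, lowest at −0.50. The slow-fibre median reaches −3.04 in mdx vehicle library 1.

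Across the 9 libraries Cdh5 had the highest Pearson correlation with the mean of the other lining markers, r = 0.96, followed by Tie1 (0.92), Emcn (0.91), Vwf (0.84), Tek (0.80), Kdr (0.79), Egfl7 (0.73), Flt1 (0.71) and Pecam1 (0.68). Vegfa, which fibres make, had r = 0.37. Of 10333 genes averaging at least 5 CPM, the 8 most like the lining markers were Mmrn2 (r = 0.96), Abcb1a and Kif26a (0.93 each), She, Rasgrf2 and Eltd1 (0.93 each), Gpr116 and Sox7 (0.91 and 0.90). The 8 most like Vegfa were Nutf2 (0.99), Mterf2, Nme2, Ndufa11, Ndufb9, Mrpl55, Dand5 and Cyc1 (0.98 each). These correlations describe 9 libraries that share depth, scaling and group.

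Levels of different genes were set side by side per kb of the longest annotated GENCODE transcript. In wildtype vehicle the order in CPM per kb was Vegfa at 58.6 ± 20.8, Egfl7 at 31.2 ± 5.98, Pecam1 at 14.8 ± 3.82, Cdh5 at 14.3 ± 4.56, Tie1 at 7.11 ± 1.72 and Kdr at 5.53 ± 2.23. Emcn at 3.32 ± 0.70, Flt1 at 3.18 ± 1.48, Tek at 2.79 ± 0.36 and Vwf at 2.48 ± 0.67 followed (SD, n = 3). Neighbours overlapped except Vegfa with Egfl7, Egfl7 with Pecam1 and Cdh5 with Tie1. This order rests on summing the records of a gene, which number 11 for Egfl7, 9 each for Vegfa and Pecam1 and 1 for Tie1, and a read listed under several records is counted in each. With the largest record alone the order in wildtype vehicle began with Cdh5 at 7.36 ± 2.30, Tie1 at 7.11 ± 1.72 and Vegfa at 7.08 ± 2.69 CPM per kb. Egfl7 then lay at 3.53 ± 0.42, Kdr at 3.15 ± 1.21, Flt1 at 2.99 ± 1.41 and Pecam1 at 1.99 ± 0.55 CPM per kb, so the place of Vegfa, Egfl7 and Pecam1 in the order depends on the records. Emcn, Vwf and Tek were the lowest, at 1.32, 0.82 and 0.68 CPM per kb.

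The other genes of these pathways were taken from 10 lists with 105 genes, of which 98 were tested. In mdx vehicle against wildtype vehicle 64 of the 98 lay below 0, beside 48.9% of all genes, and by limma 0 passed after adjustment. At an unadjusted p under 0.05, 3 (3.06%) were lower and 4 (4.08%) higher, beside 6.36% and 6.33% of all genes. On the deposited scaling 50 of the 98 lay below 0, beside 28.9% of all genes, and without mdx vehicle library 1 the number was 56. Of the other VEGF ligands and receptors 4 of 6 lay below 0: Vegfb, the ligand tied to fatty acid uptake, averaged 69.1 ± 21.0 against 102.0 ± 33.8 CPM (SD, n = 3; log2 fold change −0.55, or −0.33 without mdx vehicle library 1). Flt4, the lymphatic receptor, and its ligand gene Vegfc differed by −0.49 and −0.35. In the angiopoietin group 3 of 5 lay below 0, among them Angpt1, the ligand that activates TIE2, at −0.66 (SE 0.41), and Ptprb, the endothelial phosphatase that acts on TIE2, at −0.47. Angpt1 was at −0.26 and Ptprb at −0.19 without mdx vehicle library 1.

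Of the endothelial Notch genes 9 of 9 lay below 0 in mdx vehicle, with a median of −0.12, beside 48.9% of all genes. On the deposited scaling 4 of 9 did, beside 28.9% of all genes, and without mdx vehicle library 1 it was 6 of 9. Dll4, the ligand of tip cells that VEGF signalling induces, was at 10.4, 9.36 and 11.6 CPM in wildtype vehicle, 6.65, 7.40 and 6.84 CPM in mdx vehicle, and 9.04, 7.22 and 7.87 CPM in mdx GTx-026. Neither mdx group overlapped wildtype. Its log2 fold change was −0.52 in mdx vehicle (SE 0.15; limma adjusted p = 0.230, with an unadjusted p of 0.0063), with an adjusted p of 0.16 to 0.657 over the alternatives. Against wildtype it was −0.34 in mdx GTx-026 (adjusted p = 0.392).

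Of the capillary lipid handling genes 11 of 11 lay below 0 in mdx vehicle, with a median of −0.43, and 10 of 11 did on the deposited scaling. Without mdx vehicle library 1 it was 8 of 11, with a median of −0.15. Lpl, the lipoprotein lipase that works at the capillary wall and is made by fibres and fat cells, was at 591, 494 and 572 CPM in wildtype vehicle, 146, 360 and 335.5 CPM in mdx vehicle, and 124, 409 and 536 CPM in mdx GTx-026. Mdx vehicle did not overlap wildtype (log2 fold change −1.08, SE 0.52; limma adjusted p = 0.424), and without library 1 it differed by −0.665. With GTx-026 against mdx vehicle 10 of the 11 lay above 0, with a median of 0.29, and without that library 5 of the 11 lay below 0 and the median was 0.06. In mdx vehicle the library medians of this list were −1.01, −0.44 and 0.21, lowest in library 1, as for the lining markers. Of 5 adipocyte markers 4 were tested, and their sum was 16.1 to 1014 CPM in wildtype vehicle, 4.84 to 461.5 CPM in mdx vehicle, lowest in library 2, and 95.4 to 521 CPM in mdx GTx-026. In mdx vehicle against wildtype 3 of the 4 lay below 0 (median −0.50, or −0.24 without library 1), and with GTx-026 against mdx vehicle 4 of 4 lay above 0 (0.87, or 0.60 without it). Fat cells also make Lpl, Cd36 and Fabp4 of the lipid list, and their part in its values was not tested.

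Of the vein and activation genes in mdx vehicle 6 of 7 lay above 0, with a median of 0.47, among them the adhesion molecule Vcam1 at 0.87 (SE 0.41) and the chemokine receptor Ackr1 at 0.47. Vcam1 was at 19.2, 5.34 and 8.69 CPM in mdx vehicle, and without library 1 its log2 fold change was 0.42. In the artery list 3 of 4 lay below 0, while the gap junction gene Gja4 was at 6.40, 6.49 and 10.99 CPM in mdx vehicle against 5.33, 3.25 and 4.11 CPM in wildtype (log2 fold change 0.76; limma adjusted p = 0.243). With GTx-026 Gja4 was at 9.92, 8.77 and 10.2 CPM, above all wildtype libraries. Its log2 fold change against wildtype was 1.04 there (limma adjusted p = 0.063). Without mdx vehicle library 1, which is in neither of these groups, it was 1.025 (limma adjusted p = 0.043). In that fit 374 of all genes passed, beside 227 with all libraries, and Gja4 is not given here without other libraries. Of the genes that regulate Vegfa or answer to low oxygen 11 of 16 lay below 0, with a median of −0.18, and without mdx vehicle library 1 it was 9 of 16 with a median of −0.03. The oxygen sensor Egln1 was at −0.56 and the endothelial hypoxia factor Epas1 at −0.48. Of the other pan-endothelial genes 13 of 22 lay below 0, with a median of −0.20, and of the transcription factors 7 of 13, with a median of −0.06 (−0.13 without mdx vehicle library 1). Among these factors Ets2 was at −0.56 (limma adjusted p = 0.306), with mdx vehicle below wildtype without overlap, and Gata2 was at −0.405. Foxo1 went the other way, at 0.74 (limma adjusted p = 0.339), and its groups overlapped.

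In mdx GTx-026 against mdx vehicle 61 of the 98 listed genes lay above 0, and by limma 0 passed after adjustment. Below 0 lay 37 (37.8%), beside 48.9% of all genes, and on the deposited scaling 43 (43.9%), beside 60.6% of all genes. At an unadjusted p under 0.05, 0 were lower and 3 (3.06%) higher, beside 1.97% of all genes higher. In mdx GTx-026 against wildtype vehicle 2 of the 98 (2.04%) rose and 0 fell by limma after adjustment, a share near the 1.48% of all genes that passed. Procr, the endothelial protein C receptor, was at 9.54, 8.64 and 10.3 CPM with GTx-026, 7.50, 4.66 and 7.07 CPM in mdx vehicle, and 3.05, 4.24 and 4.69 CPM in wildtype (log2 fold change 1.08 against wildtype, SE 0.20; limma adjusted p = 0.0361). Pdpn, podoplanin, a lymphatic marker that fibroblasts and macrophages can also express, was at 12.4, 10.3 and 16.3 CPM with GTx-026, 12.9, 8.58 and 10.2 CPM in mdx vehicle, and 3.71, 5.16 and 4.11 CPM in wildtype (1.38, SE 0.21; adjusted p = 0.0162). In both genes the GTx-026 libraries lay above all wildtype libraries. The call of Procr was lost without any 1 of the 6 wildtype or GTx-026 libraries (adjusted p up to 0.128) and on the deposited scaling (adjusted p = 0.0617), and that of Pdpn without wildtype library 1 or 3 or GTx-026 library 1 or 3 (up to 0.0861). In mdx vehicle Pdpn differed from wildtype by 1.11 (adjusted p = 0.0783) without overlap. Markers of fibroblasts and fibro-adipogenic progenitors lay above 0 in 5 of 5 genes with GTx-026 against wildtype (median 1.11). In mdx vehicle against wildtype 4 of the 5 lay above 0. Their summed levels were 868 to 1450 CPM with GTx-026, 559 to 1326 CPM in mdx vehicle and 401 to 625 CPM in wildtype. The part of these cells in the levels of Procr and Pdpn was not tested.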

How the data were processed

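Polyadenylated RNA of mouse gastrocnemius was sequenced on an Ion Torrent Proton, per the labels' protocols. The submitters' processing notes name build GRCm38.p3, DESeq2 1.6.3, HTSeq 0.6.1p1, SAMtools 0.1.19, Bowtie2 2.2.4 and TopHat2 2.0.13, with no role or order. The gene annotation, and whether strand was used, is not given in the sources used here. In the file the authors' deposited signal is a scaled read number for each of 46442 sequence records, with 1 factor per library. The authors' ratio (fold) of group means and the authors' deposited p-value stand beside it for each pair of groups, per the file headers. Of the authors' deposited p-values for the 46 records of the 10 genes 0 were under 0.05, the lowest being 0.151, 0.17 and 0.182 over the 3 pairs. Each column names a group and a number, so it was assigned to the group only, and the number pairs nothing.

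Deposited signal was summed by symbol over records above 0 in all 9 libraries and divided by the library total. Signal divided by the step of each library gave the listed reads, a division that does not change CPM. Low listed reads lay within 0.075 of whole numbers, but they rest on an estimated step and on records that can share reads, so they were not taken as counts and no count model was run. Rescaling used an unweighted trimmed mean of log ratios (30% trimmed on the ratio, 5% on the level; factors of 0.874 to 1.30). Values of log2(CPM + 1) were tested with limma 3.58.1 (R 4.3.3), with a trended prior, on a scale that understates the change of low genes. All 9 libraries entered a single fit (6 residual and 3.54 prior degrees of freedom), and two-sided p-values were adjusted by the Benjamini-Hochberg method over 15372 genes. The fit was tested on simulated data. Ratios were compared by exact permutation.

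The members and lists were chosen with earlier results of these data known. Genes named were the 10 members, list genes past the threshold and otherwise up to 3 per list with the smallest p in mdx vehicle against wildtype vehicle, and the 8 most alike. Coordinates and promoters are from RefSeq GRCm38.p6. The alternatives were deposited and median-of-ratios scaling, pseudocounts of 0.5 and 5, no filter, a mean of at least 1 CPM, the largest record, the compared groups only, an untrended prior, and leaving out each library.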

Additional observations from a re-analysis of the deposited data

How the results depend on the processing

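No member passed the adjusted threshold under any of the 18 alternatives in any comparison. Deposited scaling moved the median of all genes to 0.15 in mdx vehicle against wildtype vehicle, 0.093 in mdx GTx-026 against wildtype vehicle and −0.05 in mdx GTx-026 against mdx vehicle, and the median of the 10 members in the first of these was then −0.30. Signs that turned all belonged to changes that were not called. Under deposited scaling Pecam1 in mdx vehicle against wildtype vehicle was 0.051, and in mdx GTx-026 against mdx vehicle Egfl7 was −0.061 and Kdr −0.044. Under median-of-ratios scaling Egfl7 was −0.017 and Kdr −0.0054 in the latter comparison, and Tek in mdx GTx-026 against wildtype vehicle was −0.0003. With a mean of at least 1 CPM Egfl7 was −0.0028.

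When each library was left out in turn, the lowest and highest log2 fold changes in mdx GTx-026 against mdx vehicle were −0.044 and 0.54 for Cdh5, −0.13 and 0.10 for Egfl7, −0.17 and 0.35 for Emcn, −0.035 and 0.50 for Flt1, −0.29 and 0.38 for Kdr, −0.33 and 0.16 for Pecam1, −0.12 and 0.31 for Tie1 and −0.36 and 0.59 for Vwf. In mdx GTx-026 against wildtype vehicle they were −0.44 and 0.084 for Emcn, −0.49 and 0.037 for Flt1, −0.41 and 0.039 for Pecam1, −0.31 and 0.24 for Tek, −0.34 and 0.15 for Vegfa and −0.80 and 0.11 for Vwf. In mdx vehicle against wildtype vehicle Pecam1 ran from −0.33 to 0.20, and the other 9 members stayed below 0.

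Over all genes 52, 2 and 227 passed in mdx vehicle against wildtype vehicle, mdx GTx-026 against mdx vehicle and mdx GTx-026 against wildtype vehicle. With no filter, which adds genes listed at 0 in a group, 332, 96 and 509 passed, and with the compared groups only 5, 1 and 420. Leaving out a library gave 5 to 93, 0 to 2 and 45 to 374. The cause was not tested. Under deposited scaling Procr in mdx GTx-026 against wildtype vehicle was not called (1.17, adjusted p = 0.0617). No paired analysis was possible because the columns carry numbers that the labels do not tie to samples.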
